A study of Mus musculus with 2 samples.

Results

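The interleukin-1 (IL-1) family was examined as 10 genes of the deposited expression table, chosen by gene name out of the 34745 genes it lists. They are the agonist cytokines Il1a and Il1b, the antagonist Il1rn, the cytokines Il18 and Il33, the receptor chains Il1r1, Il1r2, Il1rap and Il1rl1, and the IL-18 binding protein gene Il18bp. The cells were monocytic myeloid-derived suppressor cells (M-MDSCs), grown from bone marrow of young adult mice for 7 days and sorted as CD11b+ Ly6G- Ly6Chigh. CHBP- M-MDSC received GM-CSF, a myeloid growth factor, and CHBP+ M-MDSC received GM-CSF with CHBP, a cyclic peptide derived from erythropoietin that does not drive red cell production. For CHBP, the study's methods give a micromolar dose and its results nanomolar doses. By the labels the CHBP- mice were C57BL/6 and the CHBP+ mice C57BL/7, and the methods give C57BL/6 throughout. Each condition was sequenced as 1 library, so there is no replicate spread, and an effect of CHBP cannot be told apart from any other difference between the libraries. The number of mice behind each library is not given in the sources used here.

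IL-1α and IL-1β signal through IL-1R1, which pairs with the accessory chain IL-1RAP and recruits MyD88 to activate NF-κB. The pathway is held back at several points. IL-1 receptor antagonist occupies IL-1R1 without signalling, IL-1R2 is a decoy that binds IL-1 and lacks a signalling domain, and IL-18BP neutralises IL-18. IL-1RAP also serves the IL-33 receptor ST2, encoded by Il1rl1, and the IL-36 receptor, encoded by Il1rl2. IL-1β and IL-18 are made as precursors that caspase-1 cleaves in the inflammasome. In myeloid suppressor cells, IL-1β is known as a signal that promotes their accumulation in inflammation.

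The decoy was abundant and the signalling receptor scarce. Il1r2 had the highest FPKM of the 10 genes in both libraries (counted reads set relative to their total and to the length of the gene), and Il1r1 was the second lowest. Il1r1 had 1.83 times as many scaled reads in CHBP+ as in CHBP- M-MDSC, whereas Il1r2 had 0.765 times as many. Il1rn, Il1a, Il1rap and Il1rl1 were also higher in CHBP+ M-MDSC, and Il1b and Il18bp were lower, whereas the difference of Il18 was within counting error. Some of these differences went with gene length, as described further on. With a gene length trend removed, the log2 ratio of Il1r1 went from 0.45 to 0.33 and that of Il1r2 from -0.38 to -0.24. Those of Il1rap and Il1rl1 were then 0.015 and 0.058. With a transcript length trend removed, the log2 ratio was 0.30 for Il1r1, -0.14 for Il1r2 and 0.013 for Il1b.

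The sequences just upstream of the start sites are shown for the neighbouring pairs whose members went in opposite directions, Il1a with Il1b on chromosome 2 and Il1r2 with Il1r1 on chromosome 1. Each is the 250 bases before a start site in RefSeq (GRCm38.p6), written 5′ to 3′ on the gene's strand, and the capitals mark motif matches.
Il1a, chr2:129309973-129310222, minus strand: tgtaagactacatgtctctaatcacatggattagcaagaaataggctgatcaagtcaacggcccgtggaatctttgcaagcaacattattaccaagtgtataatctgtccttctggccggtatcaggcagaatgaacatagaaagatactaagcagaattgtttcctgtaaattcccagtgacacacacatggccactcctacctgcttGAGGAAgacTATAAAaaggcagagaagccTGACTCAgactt
Il1b, chr2:129371140-129371389, minus strand: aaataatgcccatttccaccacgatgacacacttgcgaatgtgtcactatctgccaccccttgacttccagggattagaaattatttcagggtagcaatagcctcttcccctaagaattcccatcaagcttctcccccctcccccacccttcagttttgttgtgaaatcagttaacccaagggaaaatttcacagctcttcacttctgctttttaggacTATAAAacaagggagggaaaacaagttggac
Il1r2, chr1:40085843-40086092, plus strand: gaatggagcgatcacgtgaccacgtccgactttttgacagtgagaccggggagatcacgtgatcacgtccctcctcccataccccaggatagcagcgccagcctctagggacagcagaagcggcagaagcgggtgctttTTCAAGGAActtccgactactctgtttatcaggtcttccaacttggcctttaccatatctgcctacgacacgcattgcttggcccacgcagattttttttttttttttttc
Il1r1, chr1:40224830-40225079, plus strand: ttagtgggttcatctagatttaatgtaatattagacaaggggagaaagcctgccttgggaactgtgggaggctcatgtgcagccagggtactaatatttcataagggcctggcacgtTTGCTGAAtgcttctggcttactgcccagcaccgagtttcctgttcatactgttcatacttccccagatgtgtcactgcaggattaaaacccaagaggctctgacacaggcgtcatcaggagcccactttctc
The motifs searched on both strands were the TATA box (TATAAA), AP-1 (TGANTCA), the PU.1 core (GAGGAA), C/EBP (TTGCNNAA) and STAT (TTCNNNGAA), and their matches did not overlap. Il1a and Il1b each held a TATA box, starting 32 and 31 bases before the start site, as did 12.4% of all 32851 windows of this length. Il1a also held an AP-1 match (6.75% of windows) and a PU.1 core (23.3%). Il1r2 held a STAT match 111 bases before the start (7.02% of windows), and Il1r1 a C/EBP match at 133 bases (9.56%). Il1r1 has 2 start sites in the RefSeq table and the upstream one is shown, whereas the start shown for Il1r2 lies inside the span listed for it in the deposited table. Bases just after the start shown were found in a GENCODE M1 transcript of the gene for Il1a, Il1b and Il1r1, but not for Il1r2. The Il1r2 start, and the distance of its STAT match, are therefore less certain. A match describes letters only, and binding was not measured.

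The counted reads came to 16484504 for CHBP- and 16280466 for CHBP+ M-MDSC, and FPKM differed from the counts only by gene length and these totals. Log2 ratios compare CHBP+ with CHBP- after 1 was added to each FPKM, which makes the difference of a low gene look smaller. Counts of genes cover the 10948 genes that reached 1 FPKM in either library, called the genes kept. Where genes of a list are counted as higher or lower by any amount, the same share over all genes kept was not computed. Such counts therefore have no background beside them, and the median log2 ratio of all genes kept was -0.028. The ratio of scaled reads, reads divided by the library total, is given with an exact 95% Clopper-Pearson interval for counting error only. Reads are not independent molecules, and no p-value was computed because 1 library per condition leaves nothing to estimate one from. In sorted cells sequenced in bulk, fewer cells of a type and less RNA per cell cannot be told apart. Of the markers used for the sort, the gene of CD11b, Itgam, had 18653 and 27265 reads in one table entry and 8703 and 13147 in the other. The ratios of its entries were 1.48 and 1.53. Ly6c2 had 56.9 and 34.0 FPKM (ratio 0.597), Ly6c1 had 3.70 and 2.91 FPKM (0.786), and Ly6g had 2.19 and 2.12 FPKM (0.969).

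Il1a, which encodes IL-1α, a cytokine that is active without caspase-1 cleavage, had 1111 reads without and 1224 reads with CHBP (34.1 and 38.1 FPKM). Its scaled reads were 1.12-fold higher in CHBP+ M-MDSC (interval 1.03 to 1.21), a small difference that just exceeded counting error. Il1b, which encodes IL-1β, had 1633 and 1379 reads, or 42.1 and 36.0 FPKM. It was lower in CHBP+ M-MDSC, with a ratio of 0.855 (interval 0.795 to 0.919). The agonist genes therefore differed between the libraries in opposite directions. By deposited FPKM, Il1b was above Il1a in CHBP- M-MDSC and their intervals overlapped in CHBP+ M-MDSC, whereas with FPKM computed over the longest transcript in the GENCODE M1 annotation Il1b was above Il1a in both, at 73.1 and 62.5 FPKM against 34.1 and 38.1. Relative to Il1b, Il1a was 1.30 times higher with CHBP than without it (exact conditional 95% interval 1.17 to 1.46), a comparison within each library that no scaling between libraries affects. The log2 ratio of Il1b was -0.22, and it was 0.013 once the trend with transcript length described further on was removed, so its direction depended on that step.

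Il1rn, the gene of IL-1 receptor antagonist, had the most reads of the family, 5106 without and 5871 with CHBP. This gave 38.2 and 44.5 FPKM and a ratio of 1.16 (interval 1.12 to 1.21), the narrowest interval relative to its value among the 10 genes. The FPKM ratio of antagonist to Il1b was 0.908 without and 1.24 with CHBP, a change of 1.36-fold (interval 1.25 to 1.48). Over the longest M1 transcripts these ratios were 1.71 and 2.33, so whether the antagonist stood below or above Il1b without CHBP depended on the length used. The lengths cancel from the change between the libraries, but the length trend described further on does not. With that trend removed, the log2 ratios of Il1rn and Il1b went from 0.21 and -0.22 to 0.14 and -0.076, a difference of 0.21. Against Il1a the antagonist did not shift beyond counting error, with a change of 1.04-fold (interval 0.953 to 1.14). With the trend removed, the log2 ratio of Il1rn minus that of Il1a was -0.18. Secreted and intracellular forms of the antagonist come from this gene and cannot be told apart in gene counts.

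Il18 had few reads, 45 without and 33 with CHBP (3.82 and 2.84 FPKM). Its ratio of 0.743 had an interval from 0.459 to 1.19, so a difference in this precursor cytokine was not detectable at this depth. Il18bp, the secreted inhibitor of IL-18, had 182 and 124 reads, or 7.89 and 5.44 FPKM, and was lower in CHBP+ M-MDSC with a ratio of 0.690 (interval 0.545 to 0.871). This was the lowest ratio of the family. The inhibitor stood at 2.06 times the FPKM of Il18 without CHBP and at 1.92 times with it, and the change between these, 0.929-fold, had an interval from 0.546 to 1.59. Il33, a nuclear alarmin of stromal and epithelial cells, had 5 and 4 reads (0.058 and 0.047 FPKM), which left its ratio anywhere from 0.161 to 3.76.

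Il1r1 had 127 reads without CHBP and 229 with it, a level of 0.785 and 1.43 FPKM. The signalling receptor was thus near the limit of 1 FPKM in both libraries, and its ratio of scaled reads was 1.83 (interval 1.46 to 2.29), the farthest from 1 among the 10 genes. On the log2(FPKM + 1) scale its difference was 0.45, or 1.36-fold, because 1 FPKM was added to values of that size, and on that scale Il18bp was slightly farther from 0, at -0.46. Il1r2 had 3034 and 2293 reads, or 78.5 and 60.1 FPKM, with a ratio of 0.765 (interval 0.725 to 0.808). The FPKM of the signalling receptor was 1.00% of that of the decoy without CHBP and 2.39% with CHBP. The ratio of decoy to signalling receptor changed by 0.419-fold (interval 0.332 to 0.527), the largest change among the 8 pairs of members computed.

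Il1rap, the accessory chain shared by the IL-1, IL-33 and IL-36 receptors, had 1051 and 1269 reads, or 4.23 and 5.17 FPKM, and a ratio of 1.22 (interval 1.13 to 1.33). Il1rl1 had 275 and 341 reads, or 1.51 and 1.89 FPKM, and a ratio of 1.26 (interval 1.07 to 1.48). Both were higher in CHBP+ M-MDSC, by less than Il1r1. Relative to Il1r1, Il1rap stood at 0.670 times its CHBP- value (interval 0.527 to 0.849) and Il1rl1 at 0.688 times (interval 0.520 to 0.907). Membrane and soluble forms of ST2 and of IL-1RAP share gene counts here.

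**Figure D1:**
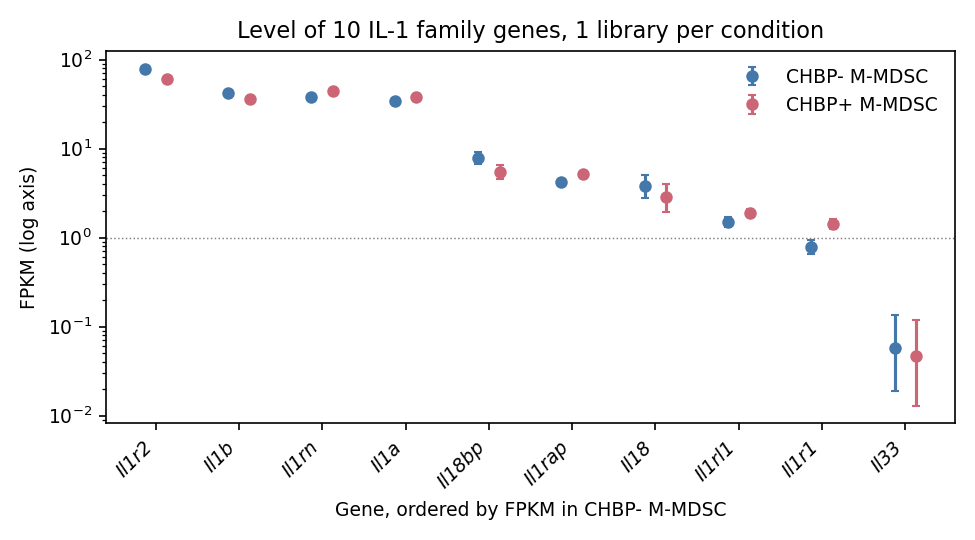
Level of the 10 IL-1 family genes in FPKM (log axis) in the CHBP- and CHBP+ M-MDSC libraries, with exact 95% Poisson intervals of the reads as error bars and a dotted line at 1 FPKM. Il1r2 is highest in both libraries at 78.5 and 60.1 FPKM, Il1b, Il1rn and Il1a lie between 34.1 and 44.5 FPKM, and Il33 is below 0.1 FPKM.

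The order of the levels was the same in both libraries from the fifth gene down: Il18bp, Il1rap, Il18, Il1rl1, Il1r1 and Il33. Above these, the order in CHBP- M-MDSC was Il1r2, Il1b, Il1rn and Il1a, each separated from the next by its Poisson interval. In CHBP+ M-MDSC it was Il1r2, Il1rn, Il1a and Il1b, and the intervals of Il1a and Il1b overlapped. The neighbours that did not differ beyond counting error were Il1rap and Il18 in CHBP- M-MDSC, and Il18bp and Il1rap, and Il18 and Il1rl1, in CHBP+ M-MDSC. The length behind each deposited FPKM was 8102 bases for Il1rn, 9815 for Il1r1 and 15070 for Il1rap, against 2474, 4829 and 4520 bases for the longest M1 transcript of each, whereas both lengths were 1974 bases for Il1a. With FPKM computed over the longest transcript, Il1rn had 125 and 146 FPKM without and with CHBP, and Il1r2 had 138 and 105. On that length, chosen after the values were seen, the antagonist and not the decoy was the highest member in CHBP+ M-MDSC, Il1b was above Il1a in both libraries, and Il1rap was above Il18bp in both. Il18 then had 2.89 FPKM in CHBP+ M-MDSC, beside 2.91 for Il1r1 and 3.95 for Il1rl1. With the 33 reads of Il18 there, the order of these genes was not settled beyond counting error.

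Of the 10 genes, 9 reached 1 FPKM in either library, and the exception was Il33. Among the 9, 5 stood higher with CHBP and 4 stood lower, and none was at least 1.5-fold apart on the log2(FPKM + 1) scale, against 3.42% of all genes kept that were that much higher and 2.89% that were that much lower. With scaled reads and no pseudocount, Il1r1 was past 1.5-fold, a share of 1 in 9 against 6.50% of all genes kept higher by that rule, and no member was that much lower, against 5.54%. Il1r1 was among the genes kept only through CHBP+ M-MDSC, the library where it was higher, so its count as a higher gene is not independent of that limit. The median log2 ratio of the 9 was 0.15, against -0.028 for all genes kept. With the gene length trend described further on removed, the middle value of the 9 was that of Il1rap, 0.015. The counting interval left out 1 for 8 of the 9, and 58.9% of all genes kept did so. Of these 8, 5 were higher (27.9% of all genes kept) and 3 were lower (31.0%). Such an interval shows only that the libraries differed by more than the sampling of reads.

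**Figure D2:**
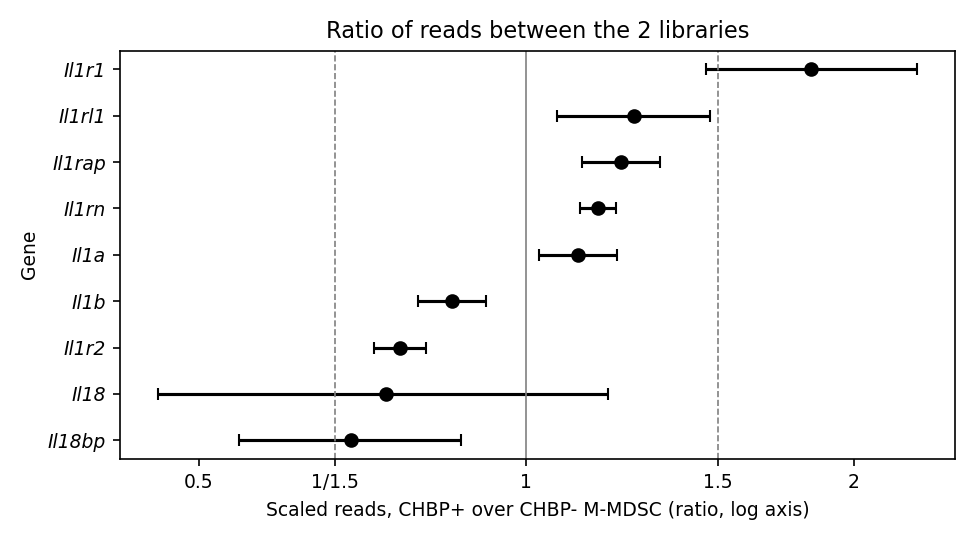
Ratio of scaled reads in CHBP+ over CHBP- M-MDSC (log axis) for the 9 members of at least 1 FPKM, with exact 95% Clopper-Pearson intervals. The solid line marks 1 and the dashed lines a 1.5-fold difference. Il1r1 at 1.83 is past the upper dashed line, and Il18 is the member whose interval includes 1.

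The direction of the members went with gene length. The 4 members with the longest genes behind their FPKM, Il1rap, Il1rl1, Il1r1 and Il1rn (8102 to 15070 bases), were all higher in CHBP+ M-MDSC, and of the 5 shorter ones (714 to 2352 bases) all but Il1a were lower. Over the 9 genes, which come from the same 2 libraries, Spearman's rho between log2 ratio and length was 0.80, and over all genes kept it was 0.48. Against the longest M1 transcript, matched for 10508 of the genes kept, rho was 0.66. A cubic curve through all genes kept gave 0.22 at the length of Il1rap and -0.24 at that of Il18. With that curve removed, the log2 ratio was 0.32 for Il1a, 0.33 for Il1r1 and 0.14 for Il1rn. It was -0.24 for Il1r2 and -0.26 for Il18bp. Il1rap (0.015), Il1rl1 (0.058), Il1b (-0.076) and Il18 (-0.085) lay close to the curve, and the SD of all genes kept around it was 0.30. The difference between Il1r2 and Il1r1 was -0.56 on this scale. What caused the trend was not tested.

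**Figure D3:**
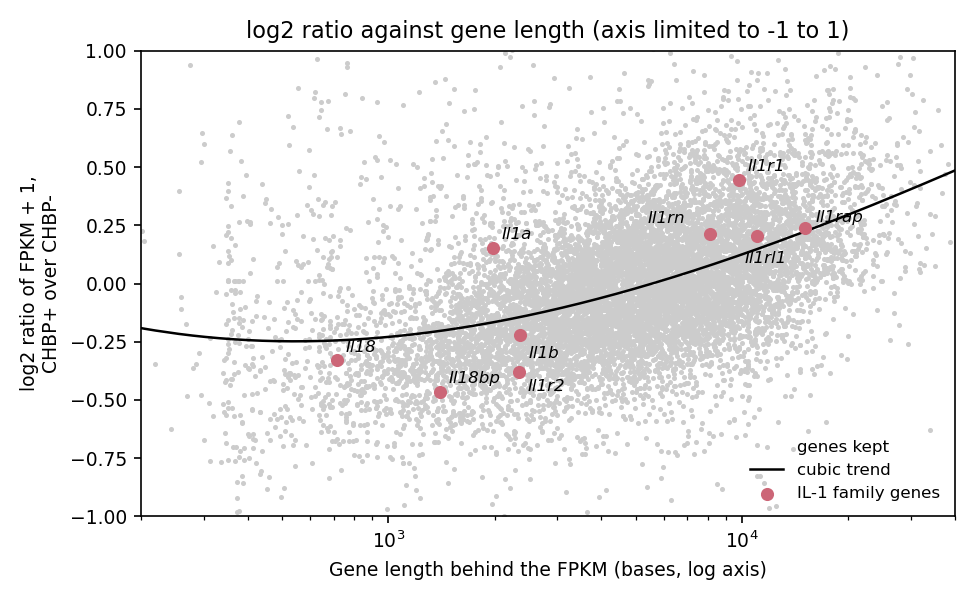
log2 ratio of FPKM + 1 in CHBP+ over CHBP- M-MDSC against the gene length behind the FPKM (bases, log axis) for the genes kept (grey), with the cubic curve through them (line) and the 9 IL-1 family members (coloured). The vertical axis is limited to -1 to 1. Il1a and Il1r1 lie above the curve by 0.32 and 0.33, and Il1rap lies on it.

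Il1r2, Il1r1 and Il1rl1 share a receptor cluster on chromosome 1, which holds Il1r2, Il1r1, Il1rl2, Il1rl1, Il18r1 and Il18rap in that order over 478 kb. Looking at the cluster as a group was prompted by these values. Il1r2, at one end, was lower in CHBP+ M-MDSC, and the 5 others were higher. Il1rl2, the IL-36 receptor gene, had 985 and 1429 reads, or 7.11 and 10.4 FPKM, with a ratio of 1.47 (interval 1.35 to 1.59). Il18rap, the accessory chain of the IL-18 receptor, had 1275 and 1593 reads with a ratio of 1.27 (interval 1.17 to 1.36). Il18r1, its ligand-binding chain, had 69 and 88 reads and an interval from 0.932 to 1.80 that included 1. The 5 genes other than Il1r2 also had the longer lengths behind their FPKM (7450 to 11062 bases, against 2344 for Il1r2). With the length curve removed, Il1rl2 stood at 0.41, Il18rap at 0.25 and Il18r1 at 0.042.

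**Figure D4:**
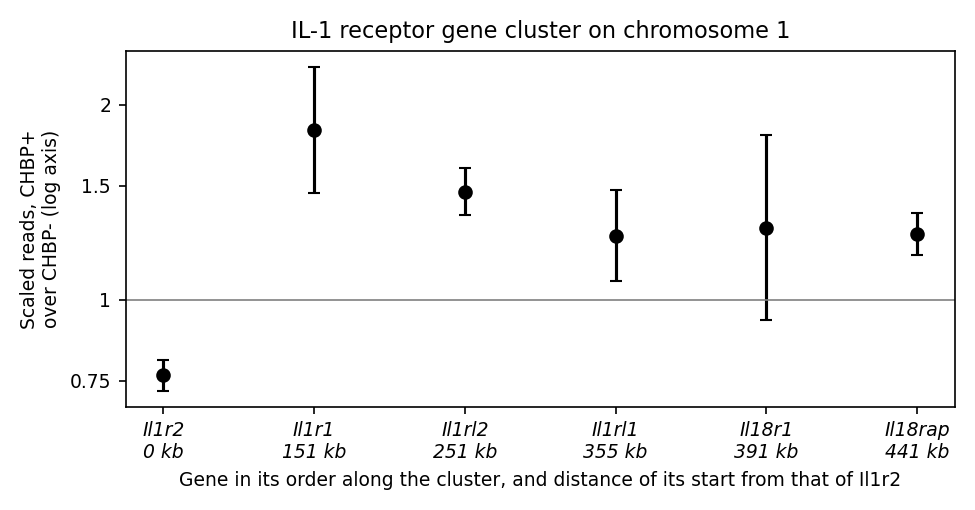
Ratio of scaled reads in CHBP+ over CHBP- M-MDSC (log axis) for the 6 IL-1 receptor family genes of the chromosome 1 cluster, in their order along the chromosome and with the distance of each start from that of Il1r2 in kb. Error bars are exact 95% Clopper-Pearson intervals. Il1r2 lies below 1 at 0.765 and the others lie between 1.26 and 1.83, with the interval of Il18r1 reaching below 1.

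Among the other genes of the family, 11 of which were in the table, 5 had no reads in either library, including the IL-36 receptor antagonist gene Il1f5 and the orphan receptor gene Il1rapl1. Il1f9, which encodes IL-36γ, had 2000 and 1703 reads, or 73.6 and 63.5 FPKM, with a ratio of 0.862 (interval 0.808 to 0.920). By deposited FPKM it stood above Il1b in both libraries, and over the longest M1 transcripts the genes were nearly level, Il1b having 73.1 and 62.5 FPKM. Il1f6, which encodes IL-36α, had no read in CHBP- and 3 reads in CHBP+ M-MDSC. Sigirr, a receptor that dampens IL-1 and Toll-like receptor signalling, had 101 and 88 reads and an interval from 0.655 to 1.19. Of the 4 genes kept, none was 1.5-fold apart, against 3.42% of all genes kept that were that much higher and 2.89% lower. The median log2 ratio of the 4 was 0.089.

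Of 20 genes of signalling close to the receptor, all were kept, 13 were higher and 7 were lower, and the median log2 ratio was 0.085. With the length curve removed, 10 lay above 0 and 10 below, and the median was -0.0091. None was at least 1.5-fold higher and 1 was at least 1.5-fold lower, against 3.42% and 2.89% of all genes kept. That gene was Tnfaip3, whose product A20 removes ubiquitin from signalling complexes and shuts off NF-κB, with 1709 reads without and 944 with CHBP and a log2 ratio of -0.71. Irak1, a kinase recruited through MyD88, had 911 and 1426 reads, a ratio of 1.58 and a log2 ratio of 0.56, just under the limit. Nfkbia, the inhibitor IκBα and itself an NF-κB target, had the highest level of the list, 115 and 91.1 FPKM, with a ratio of 0.794 (interval 0.752 to 0.838). Rela, a subunit of NF-κB, had 30.9 and 28.9 FPKM and an interval from 0.868 to 1.01.

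Of 21 genes of the inflammasome and of IL-1 processing, 20 were kept, 7 were higher and 13 were lower, with a median log2 ratio of -0.080. With the length curve removed, 9 lay above 0 and 11 below, and the median was -0.0079. Ctsg, the neutrophil serine protease cathepsin G, had the highest level of the list, 210 and 158 FPKM, with a ratio of 0.751 (interval 0.713 to 0.790). Txnip, a thioredoxin-binding protein, followed with 85.6 and 92.2 FPKM and a ratio of 1.08 (interval 1.05 to 1.11). Pycard, the adaptor ASC that joins sensor and caspase, had 2638 and 2176 reads, or 37.8 and 31.6 FPKM, and a ratio of 0.835 (interval 0.789 to 0.884). Casp1, the protease that cleaves IL-1β and IL-18, had 55.4 and 50.8 FPKM (ratio 0.917). Nlrp3, the sensor, had 26.1 and 24.4 FPKM (0.934), and Gsdmd, the pore through which IL-1β leaves the cell, had 82.6 and 77.0 FPKM (0.933). With the length curve removed, Casp1 and Gsdmd stood above 0, at 0.074 and 0.080, and Nlrp3 and Pycard below it, at -0.079 and -0.20. Nek7, a kinase that NLRP3 needs to assemble, went from 2731 to 618 reads, a ratio of 0.229 (interval 0.210 to 0.250) and a log2 ratio of -1.79. No gene with reads overlaps Nek7 in the table, and with the length curve removed it remained the lowest of the list at -2.00. Elane and Prtn3, neutrophil serine proteases that can cleave IL-1 family cytokines outside the cell, were the other genes at least 1.5-fold lower, with log2 ratios of -0.69 and -0.77. Once the curve was removed they stood at -0.45 and -0.66, and Elane was then no longer past 1.5-fold. Prtn3 overlaps Lppr3, which had 245 and 134 reads. Naip6, an inflammasome sensor with close paralogs that can share reads, was the gene at least 1.5-fold higher, with 437 and 786 reads and a log2 ratio of 0.71. Thus 1 of the 20 was at least 1.5-fold higher and 3 were that much lower, against 3.42% and 2.89% of all genes kept. Besides Naip6 and Txnip, the higher genes were Naip2 (ratio 1.26), Naip5 (1.30), Nlrc4 (1.25), Nlrp1a (1.30) and Mefv (1.23). The interval of each lay above 1, and with the curve removed they stood between 0.29 and 0.37.

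Of 15 genes known to be induced by IL-1, 12 were kept, 4 were higher and 8 were lower, and the median log2 ratio was -0.11. None was 1.5-fold apart, against 3.42% of all genes kept that were that much higher and 2.89% lower. After removal of the length curve, 3 lay above 0 and 9 below, and the median was -0.024. Lcn2, an iron-sequestering protein of neutrophil granules and inflamed tissue, came nearest, with 10691 and 7024 reads and a log2 ratio of -0.58. Cxcl3, a neutrophil chemokine, had the highest level, 152 and 127 FPKM, and a ratio of 0.836 (interval 0.813 to 0.859). Tnf had 51.9 and 48.0 FPKM and a ratio of 0.924 (interval 0.874 to 0.978).

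**Figure D5:**
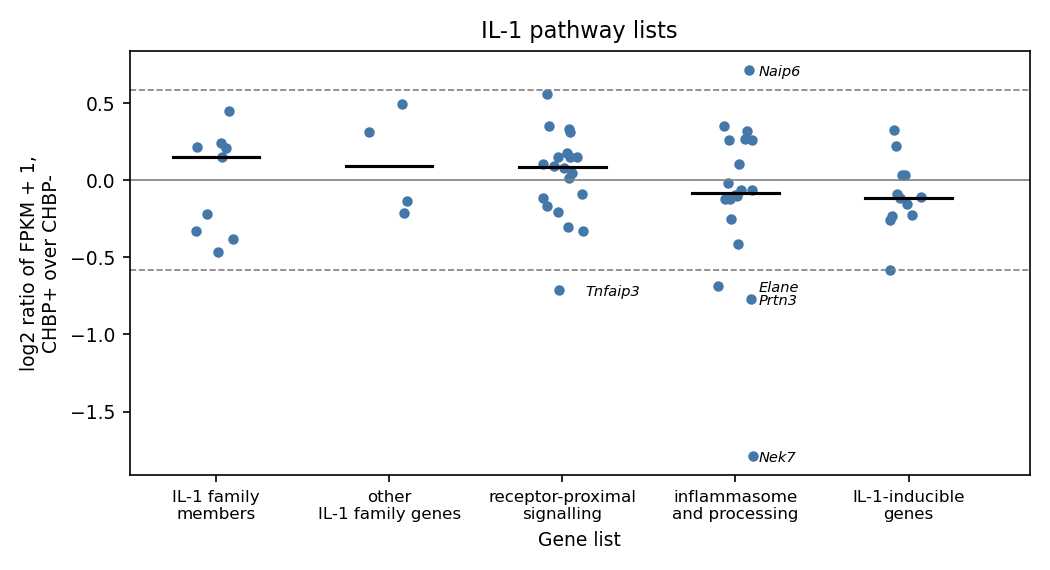
log2 ratio of FPKM + 1 in CHBP+ over CHBP- M-MDSC for the 9 IL-1 family members and the genes kept of 4 IL-1 pathway lists. Each point is a gene, the short lines are list medians and the dashed lines mark a 1.5-fold difference. Nek7 at -1.79 lies farthest from 0, and no member lies beyond the dashed lines.

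IL-1R2 is prominent on neutrophils and ST2 on mast cells and basophils, so markers of these cells are given beside their genes. Of 12 neutrophil markers, a list that also holds Elane, all were kept and 9 were lower in CHBP+ M-MDSC, as Il1r2 was. Their median log2 ratio was -0.20, against -0.028 for all genes kept, and their summed level was 3384 and 3076 FPKM. With the length curve removed, 7 of these 12 lay above 0 and 5 below, with a median of 0.016, whereas Il1r2 stood at -0.24. The highest of them, Mmp8, was higher, at 1290 and 1546 FPKM. S100a9 and S100a8, next in level, were lower, at 1269 and 937 FPKM and at 576 and 391 FPKM. Without the length curve, Mmp8 stood at 0.40, S100a9 at -0.19 and S100a8 at -0.33. No neutrophil marker was without reads. Of 12 mast cell and basophil markers, 9 were kept and 7 of these were lower, opposite to Il1rl1, with a summed level of 344 and 288 FPKM. Once the length curve was removed, 6 of the 9 were lower. Cpa3 had 141 and 130 FPKM, Prss34 had 83.4 and 57.2 and Mcpt8 had 46.1 and 29.9, all far above Il1rl1. Tpsb2 and Cma1 were under 1 FPKM in both libraries. The kept markers that were higher were Ms4a2, a chain of the IgE receptor, from 182 to 446 reads, and Kit, from 646 to 740. Mcpt4, a protease of connective tissue mast cells, had no read without CHBP and 1 with it. The part of these cells in the levels of Il1r2 and Il1rl1 was not tested.

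Markers of the other cell types gave the following summed levels in CHBP- and CHBP+ M-MDSC. They were 469 and 590 FPKM for monocytes and the sorted cells, or 212 and 205 FPKM without the pair of Itgam entries. They were 816 and 694 for dendritic cells, 485 and 514 for macrophages, 135 and 98.6 for eosinophils and 1283 and 587 for erythroid cells. They were 21.5 and 23.2 FPKM for endothelial cells, 5.92 and 5.26 for T cells and group 2 innate lymphoid cells, and 2.64 and 2.82 for fibroblasts and stromal cells. Cd74 made up most of the dendritic cell sum, at 567 and 438 FPKM, and Pecam1 most of the endothelial sum, at 18.5 and 18.8 FPKM. Of the dendritic cell markers, 8 were kept. Itgax was higher, at 107 and 142 FPKM, and the other 7 were lower, among them H2-Ab1 at 104 and 81.4 FPKM. The endothelial marker Kdr had 2.53 and 4.05 FPKM, with a ratio of 1.60 (interval 1.41 to 1.82), and stood at 0.40 with the length curve removed. The dendritic cell markers Zbtb46 and Cd209a and the endothelial markers Cdh5 and Tek were under 1 FPKM in both libraries. Stromal cells are a common source of Il1r1 and Il33, and 1 of their 7 markers was kept, Pdgfrb, a growth factor receptor also of pericytes, with 243 and 275 reads, or 1.92 and 2.20 FPKM, and a ratio of 1.15 (interval 0.961 to 1.37). Pdgfrb was thus above Il1r1 by deposited FPKM in both libraries, and its part in the level of Il1r1 was not tested. The other 6 were each at or under 0.349 FPKM in both libraries, with Pdgfra at 2 reads without CHBP and none with it. Areg, Il5 and the dendritic cell marker Xcr1 had no reads in either library.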

How the data were processed

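Single-end mRNA reads came from 1 library of CHBP- and 1 of CHBP+ M-MDSC, grouped by their labels. Per the labels, the authors trimmed adapters and poor 3′ bases and discarded short and ribosomal reads. The methods name TopHat2, HT-seq and mm9, whereas the submitters' processing notes name HISAT2 2.0.4, Cufflinks 2.1.1, Cuffdiff, mm10 and GRCm38. All 10 members overlapped their RefSeq gene on GRCm38 at the deposited coordinates. The authors deposited raw read counts per gene and FPKM. The handling of strand and of reads with several matches is not stated in the sources used here, so counts of overlapping genes and paralogs are uncertain. A read was worth 1.01 times as much FPKM in CHBP+ M-MDSC, as the total counts differ by that factor. Gene length was recovered from count and FPKM.

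With 1 library per condition there is no replicate spread to fit a count model to. The DESeq P value named in the methods was not repeated. The fold threshold of 1.5 is that of the methods. Values within and between libraries carry exact Poisson, Clopper-Pearson or conditional odds ratio intervals at 95%. Alternatives were a pseudocount of 0.1, CPM, trimmed mean of M values (R 4.3.3, edgeR 4.0.16), median centring, removal of a polynomial of degree 3 in log2 gene length, no filter, a minimum of 5 FPKM, a fold of 2, and adding reads of overlapping genes. Transcript length from GENCODE M1, matched by gene identifier for 96.0% of the genes kept, and scaled reads without a pseudocount were added after seeing the data. The genes named are all members, the genes past 1.5-fold in 4 fixed pathway lists, the gene of highest FPKM in each, genes overlapping a member with reads, and marker genes; others named were chosen after their values were seen. Members and lists were chosen with earlier results of these data known. All 10 members had an upstream sequence in the RefSeq table. Scripts were tested on simulated data and ran on Python 3.11.15 (scipy 1.17.1, pandas 2.3.3, numpy 2.4.6, matplotlib 3.10.9).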

Additional observations from a re-analysis of the deposited data

How the results depend on the processing

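No paired analysis was possible because each condition has 1 library, and no replicate could be left out. Of 74 recomputed log2 ratios of the members, 57 stayed within the counting interval. With the gene length curve removed, the log2 ratio was 0.32 for Il1a, -0.076 for Il1b, 0.14 for Il1rn, -0.24 for Il1r2, 0.015 for Il1rap and 0.058 for Il1rl1. With the curve of GENCODE M1 transcript length removed, Il1b reversed to 0.013, and the others were 0.30 for Il1a, 0.30 for Il1rn, -0.14 for Il1r2, 0.12 for Il1rap and 0.021 for Il1rl1. The cause of the trend was not tested. A smaller pseudocount raises the ratio of low genes by construction: Il1r1 was 0.79 with a pseudocount of 0.1, 0.79 with CPM and 0.87 with scaled reads, and Il33 was -0.10 and -0.30 with the first and last of these. Il1r1 ranged from 0.30 to 0.87 over the alternatives, and Il1r2 from -0.39 to -0.14. The few reads of Il18 and Il33 limit what can be said of them.

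The number of members at least 1.5-fold higher went from 0 to 1 (Il1r1) with a pseudocount of 0.1, with CPM and with scaled reads. Under these 3 settings, 1 signalling gene was higher, as also with the median set to 0, and 1 IL-1-inducible gene was lower. With a fold of 2, signalling genes lower were 0, and inflammasome genes were 0 higher and 1 lower. With the M1 curve removed, 1 other family gene was higher, and inflammasome genes were 0 higher and 1 lower. Over all genes kept, 374 were higher and 316 lower. A pseudocount of 0.1 gave 665 and 571. They were 712 and 606 with scaled reads, 218 and 209 with at least 5 FPKM, 85 and 46 at a fold of 2, and 229 and 111 with the M1 curve removed. With CPM, 609 were higher, and with the gene length curve removed 168 were lower. The other 84 counts of members and lists and 8 counts over all genes stayed within 1.5 times.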

Other observations

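Genes that overlap a member were few in reads. Il1bos, an antisense gene at Il1b, had 39 reads in CHBP- and 43 in CHBP+ M-MDSC, while Il1b went from 1633 to 1379. At Il1r2, Gm37347 had 10 and 34 reads and Gm16894 had 11 and 29, both higher in CHBP+ M-MDSC while Il1r2 was lower. Together they came to 0.692% and 2.75% of the reads of Il1r2. At Il1a, Gm14023 had 13 and 14 reads, and at Il1r1, Gm38070 had none and 1. Without strand, reads of a gene and of an overlapping antisense gene cannot be told apart.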
